A study of Mus musculus with 3 samples.

Results

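Tight junctions were followed through 10 of the 32285 genes measured in mouse colon cells: 8 claudin genes (Cldn2, Cldn3, Cldn4, Cldn5, Cldn7, Cldn8, Cldn15 and Cldn23), Tjp1, which encodes the scaffold protein ZO-1, and Ocln, which encodes occludin. The genes were picked by symbol, and each matched 1 gene. Claudins are membrane proteins that span the bilayer several times, and strands of them join neighbouring cells and set which ions and water pass between the cells. Some claudins, such as claudin-2 and claudin-15, form charge-selective pores, while others, such as claudin-3, claudin-4, claudin-7 and claudin-8, are mostly counted as sealing. Occludin lies in the same strands, and ZO-1 ties them to actin beneath the membrane.

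The study profiled cells of the large intestine of C57/BL6J mice by single-cell RNA sequencing, in 3 libraries with 1 library per treatment. All mice drank 1.5% dextran sodium sulfate (DSS), which injures the colon epithelium, for 7 days and then water for 3 days. They were given 250 µg of the antibody DATK32, of the antibody MECA367 or of rat IgG as control by injection, 3 times a week. The number of animals behind each library is not given in the labels used here, and with 1 library per treatment no difference between treatments has a replicate check, so no p-value is given. In the labels ontamalimab is the drug paired with DATK32, and vedolizumab the one paired with MECA367. As background, DATK32 is known to bind integrin α4β7, which is the target of vedolizumab, and MECA367 to bind MAdCAM-1, which is the target of ontamalimab. The groups therefore go by antibody clone alone.

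The cells kept numbered 5852 in DATK32, 5890 in MECA367 and 7367 in rat IgG, with medians of 1524.5, 1824.5 and 1469 UMIs (unique molecular identifiers, each 1 captured RNA molecule). Cells had been sorted on CD45, the marker of blood cells, per the labels, yet 37.7% of DATK32 cells, 21.8% of MECA367 cells and 33.8% of rat IgG cells were epithelial. Goblet-like cells, for example, had 1766, 2103 and 1742 CPM (a gene's UMIs scaled to all UMIs of its class, and not to gene length) of the epithelial marker Epcam in DATK32, MECA367 and rat IgG, against 2.6, 2.3 and 3.9 CPM of Ptprc, the gene for CD45. Libraries shared 7 to 11 kept barcodes per pair. The junction genes are thus described mostly in cells that were not the target of the sort.

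Cell classes were built by clustering without the junction genes and named from marker lists. Colonocyte-like cells numbered 254 in DATK32, 117 in MECA367 and 377 in rat IgG, goblet-like cells 535, 273 and 678, crypt-like cells 277, 155 and 495, and cycling-like cells 454, 313 and 344, in the same order of libraries. Squamous-like cells, led by Krt14 and Krt5, numbered 173 in DATK32, 2 in MECA367 and 216 in rat IgG, so MECA367 gives no squamous value. Endothelial-like cells numbered 101, 102 and 108. Colonocyte-like cells carried Car1, Cyp2c55 and Slc26a3 but also goblet RNA, with 845, 481 and 1565 CPM of Muc2 in DATK32, MECA367 and rat IgG, and only 12.5, 4.0 and 7.0 CPM of the surface marker Aqp8. Crypt-like cells were led by Clca3b and Kcnq1 and held 36.8, 33.6 and 32.4 CPM of the stem cell gene Lgr5. Lgr5 and Kcne3, both on the crypt marker list, were higher there than in colonocyte-like cells, but Aqp4 of that list was not. Aqp4 stood at 141, 125 and 178 CPM, below the 242, 236 and 257 CPM of colonocyte-like cells. Cftr, also on the list, stood at 166, 169 and 190 CPM, near or above the colonocyte-like 165, 151 and 144 CPM. The crypt name is thus weak, with a mean list score of 0.26 where 0.2 was needed. Cycling-like cells fell in a deep and a shallow cluster, and the shallow one held 63.4% of them in DATK32, 80.2% in MECA367 and 40.1% in rat IgG.

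The genes lie on several chromosomes of build mm10. Cldn3 (chromosome 5, 134986214 to 134987472, plus strand) and Cldn4 (chromosome 5, 134945119 to 134946934, minus strand) are neighbours 39279 bases apart, and Cldn15 lies on the same chromosome (136966616 to 136975858). Cldn2 is on chromosome X (139800828 to 139811386), Cldn5 on chromosome 16 (18776847 to 18778262) with Cldn8 (88560828 to 88563183), Cldn7 on chromosome 11 (69964779 to 69967885), Cldn23 on chromosome 8 (35824712 to 35826559), Tjp1 on chromosome 7 (65296165 to 65527781) and Ocln on chromosome 13 (100496507 to 100552718). Exons of Cldn3 overlap those of Wbscr25 on the opposite strand, and the strand setting of the counting is not given in the sources used here, so Cldn3 counts are uncertain to that extent. Wbscr25 itself held at most 9 counts in any of these classes and libraries.

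The proximal promoters of 5 members are shown because these genes carry the differences between cell classes and libraries described below: the goblet-high pore gene Cldn2, the neighbours Cldn3 and Cldn4, the endothelial gene Cldn5, and Cldn7, which was low in 1 library. Each is the 200 bases before a RefSeq transcription start on GRCm38.p6, the same build as mm10, in the gene's own direction. An entry was there for 8 of the 10 members, and motif matches on either strand are in capitals. They lie at chrX:139800608-139800807 (plus strand, Cldn2), chr5:134986014-134986213 (plus strand, Cldn3), chr5:134946935-134947134 (minus strand, Cldn4), chr16:18776647-18776846 (plus strand, Cldn5) and chr11:69964579-69964778 (plus strand, Cldn7).
Cldn2: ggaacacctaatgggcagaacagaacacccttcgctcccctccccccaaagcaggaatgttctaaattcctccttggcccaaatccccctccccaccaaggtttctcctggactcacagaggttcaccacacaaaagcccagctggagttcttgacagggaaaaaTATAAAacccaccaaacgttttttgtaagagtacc
Cldn3: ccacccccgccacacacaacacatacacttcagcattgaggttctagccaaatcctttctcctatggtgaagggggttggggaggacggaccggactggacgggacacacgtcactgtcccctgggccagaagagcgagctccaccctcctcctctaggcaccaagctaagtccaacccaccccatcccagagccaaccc
Cldn4: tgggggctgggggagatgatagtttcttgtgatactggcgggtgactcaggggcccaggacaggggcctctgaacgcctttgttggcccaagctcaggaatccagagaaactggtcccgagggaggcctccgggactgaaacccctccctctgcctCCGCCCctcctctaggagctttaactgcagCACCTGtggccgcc
Cldn5: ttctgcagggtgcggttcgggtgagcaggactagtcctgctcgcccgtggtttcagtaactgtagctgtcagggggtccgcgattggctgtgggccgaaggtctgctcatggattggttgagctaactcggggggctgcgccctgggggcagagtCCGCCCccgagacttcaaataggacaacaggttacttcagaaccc
Cldn7: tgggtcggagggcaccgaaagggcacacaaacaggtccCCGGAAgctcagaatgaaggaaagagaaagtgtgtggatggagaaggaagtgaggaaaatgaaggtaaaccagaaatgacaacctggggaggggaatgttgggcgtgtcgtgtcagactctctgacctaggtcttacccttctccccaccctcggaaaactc

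The capitals mark matches of 8 short motifs searched on both strands: the TATA box TATAAA, the GC box GGGCGG, and a type sequence each for Snail (CAGGTG), CDX (TTTATG), HNF4 (CAAAGT), grainyhead-like (AACCGG), ETS (CCGGAA) and SOX (ACAATG) factors. In the Cldn2 stretch TATAAA began at position -35 from the start, a sequence found in 9.96% of the same 200-base window over all promoters in RefSeq. Cldn4 held a GC box at -44 and CAGGTG at -14, against 31.05% and 13.9% of all such windows. Cldn5 held a GC box at -45, Cldn7 held CCGGAA at -162 (10.7%), and the Cldn3 stretch held none of the 8. A wider window of 250 bases, not shown in full, also held a GC box in Cldn3 and TTTATG in Cldn2. For Cldn7 a further start is listed and not shown, as annotated exons cover 221 of its 250 bases. That window held 1 GC box, 2 CAGGTG, 1 AACCGG and 1 CCGGAA. The stretch of Cldn4 had 62.5% G and C bases and that of Cldn7 53.0%, where the median over all windows was 53.0%. These matches are letters in a window and say nothing of which factor binds.

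Cldn2, the gene of the cation- and water-permeable pore claudin, was highest in goblet-like cells. It stood at 208 CPM in DATK32 (95% Poisson interval 193 to 225), 322 CPM in MECA367 (299 to 347) and 330 CPM in rat IgG (309 to 352). All such intervals cover counting error only. In crypt-like cells Cldn2 stood at 196, 189 and 188 CPM in DATK32, MECA367 and rat IgG, and in cycling-like cells at 165, 183 and 222 CPM, so these 2 classes overlapped over libraries. In colonocyte-like cells it stood at 83.6, 97.8 and 99.2 CPM, below all crypt-like and cycling-like values. Squamous-like cells had 19.99 CPM in DATK32 and 17.7 CPM in rat IgG, a level like that of immune cells (19.2, 17.3 and 26.6 CPM in DATK32, MECA367 and rat IgG). Goblet-like cells exceeded crypt-like cells 1.06-fold in DATK32 (0.91 to 1.24), 1.71-fold in MECA367 (1.45 to 2.01) and 1.76-fold in rat IgG (1.54 to 2.01). In DATK32 the goblet-like and crypt-like levels could not be told apart.

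Within the goblet class the level of Cldn2 differed by cluster. Goblet-like cells led by Clps, Muc2 and Retnlb had 319, 522 and 489 CPM in DATK32, MECA367 and rat IgG. Those led by Agr2, Atoh1 and Spdef had 163, 278 and 284 CPM. Those led by Zg16, Clca1 and Fcgbp, genes of mature mucus-filled goblet cells, had 99.4, 123 and 218 CPM. The order of the 3 clusters was the same in every library.

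Cldn15, the other pore-forming member and a sodium-selective one, was also highest in goblet-like cells. It stood there at 248, 220 and 207 CPM in DATK32, MECA367 and rat IgG, above every crypt-like value (152, 141 and 146 CPM). Colonocyte-like cells followed at 137, 119 and 120 CPM and cycling-like cells at 93.7, 99.8 and 120 CPM, with overlap between these classes. Goblet-like cells exceeded crypt-like cells 1.63-fold in DATK32 (1.39 to 1.92), 1.56-fold in MECA367 (1.29 to 1.89) and 1.43-fold in rat IgG (1.22 to 1.66). Squamous-like cells had 13.0 CPM in DATK32 and 11.8 CPM in rat IgG, at or under the 16.3 to 21.7 CPM of immune cells.

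**Figure D1:**
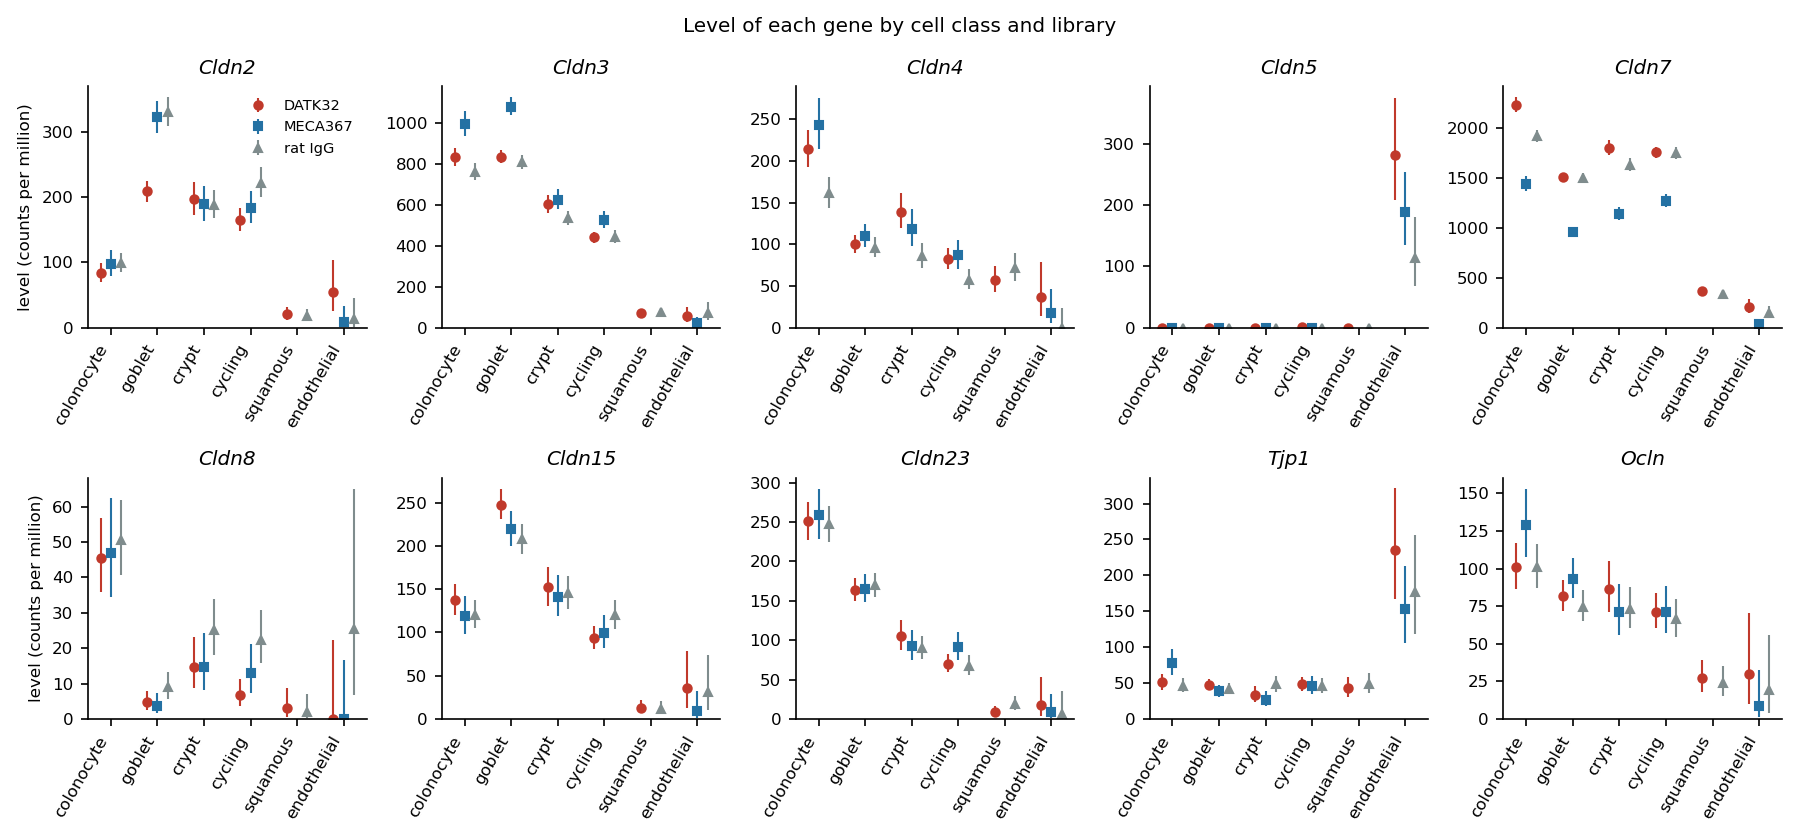
Level of each of the 10 genes in CPM (vertical axes, linear, each gene with its own range) in 6 cell classes (horizontal axes) for the DATK32, MECA367 and rat IgG libraries, with 95% Poisson intervals as bars; squamous-like cells of MECA367 are not drawn. Cldn2 and Cldn15 stood highest in goblet-like cells, Cldn4, Cldn8, Cldn23 and Ocln in colonocyte-like cells, and Cldn5 and Tjp1 in endothelial-like cells, while the MECA367 points of Cldn7 lay below those of DATK32 and rat IgG in all 4 columnar classes.

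Of the sealing claudins, Cldn23, known for its place at the intestinal surface, stood lowest in cycling-like and highest in colonocyte-like cells among the 4 columnar classes (colonocyte-, goblet-, crypt- and cycling-like cells). Its level was 70.0, 91.2 and 67.4 CPM in cycling-like cells of DATK32, MECA367 and rat IgG, 105, 92.8 and 89.9 CPM in crypt-like, 164, 166 and 170 CPM in goblet-like, and 251, 258 and 247 CPM in colonocyte-like cells. The colonocyte-like and goblet-like values did not overlap, whereas crypt-like and cycling-like values did. Colonocyte-like cells exceeded crypt-like cells 2.38-fold in DATK32 (1.95 to 2.92), 2.78-fold in MECA367 (2.19 to 3.56) and 2.75-fold in rat IgG (2.28 to 3.34).

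Cldn8, which limits sodium leak in the distal colon and the kidney tubule, was also highest in colonocyte-like cells but had few counts. Unlike Cldn23, it was lowest of the 4 columnar classes in goblet-like cells by mean level. Colonocyte-like cells had 45.4, 46.9 and 50.4 CPM in DATK32, MECA367 and rat IgG, from 76, 47 and 94 counts. Crypt-like cells had 14.7, 14.8 and 25.1 CPM, and the fold of colonocyte-like over crypt-like cells was 3.08 in DATK32 (1.83 to 5.48), 3.17 in MECA367 (1.74 to 6.10) and 2.01 in rat IgG (1.38 to 2.98). Goblet-like cells had 4.80, 3.67 and 8.93 CPM, against 2.22, 1.27 and 3.87 CPM in the pooled immune cells. Neutrophil-like cells alone had 3.89 to 10.5 CPM over the libraries. The 25.4 CPM in endothelial-like cells of rat IgG were 4 counts in 1 cell.

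Cldn4, which with Cldn3 encodes a receptor of the Clostridium perfringens enterotoxin, was highest of the 6 classes in colonocyte-like cells, at 214, 244 and 161 CPM in DATK32, MECA367 and rat IgG. Crypt-like cells had 139, 119 and 85.6 CPM and goblet-like cells 99.8, 110 and 96.0 CPM, with overlap. Cycling-like cells had 82.3, 86.9 and 57.2 CPM. Cldn4 stood in squamous-like cells at 57.0 CPM in DATK32 and 71.0 CPM in rat IgG, close to cycling-like cells and above the 23.9 and 21.1 CPM of immune cells in those libraries.

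Cldn3, its neighbour, did not follow the same order. Goblet-like cells had 837, 1082 and 810 CPM in DATK32, MECA367 and rat IgG and colonocyte-like cells 835, 996 and 763 CPM, so these classes overlapped. Crypt-like cells had 603, 626 and 536 CPM and cycling-like cells 441, 527 and 444 CPM. Squamous-like cells had 73.0 CPM in DATK32 and 77.9 CPM in rat IgG, close to the immune level of 85.7 and 81.0 CPM in those libraries.

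Cldn7, which also sits along the sides of colon cells and binds EpCAM, was high in every columnar class. Colonocyte-like cells had 2236, 1443 and 1919 CPM in DATK32, MECA367 and rat IgG, crypt-like cells 1806, 1139 and 1634 CPM, cycling-like cells 1757, 1269 and 1749 CPM, and goblet-like cells 1510, 963 and 1499 CPM. The ranges of neighbouring columnar classes overlapped over libraries, though within each library colonocyte-like cells were above goblet-like cells, by 1.48-fold in DATK32 (1.42 to 1.55), 1.50-fold in MECA367 (1.40 to 1.60) and 1.28-fold in rat IgG (1.22 to 1.34). Squamous-like cells had 364 CPM in DATK32 and 340 CPM in rat IgG, above the level of 219 and 255 CPM in all immune cells pooled. Neutrophil-like cells alone had 277 to 889 CPM over the libraries, so the squamous-like level lay within the range of 1 immune class.

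Ocln was highest of the 6 classes in colonocyte-like cells, at 101, 129 and 101 CPM in DATK32, MECA367 and rat IgG. Goblet-like cells (81.6, 93.1 and 74.6 CPM), crypt-like cells (86.7, 71.1 and 73.4 CPM) and cycling-like cells (71.4, 71.4 and 66.2 CPM) did not separate from one another. Squamous-like cells had 27.0 CPM in DATK32 and 23.7 CPM in rat IgG, against 12.3 and 11.1 CPM in immune cells of those libraries.

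Tjp1 was highest in endothelial-like cells, at 235 CPM in DATK32 (167 to 321), 153 CPM in MECA367 (106 to 213) and 178 CPM in rat IgG (118 to 257). Among the epithelial classes its values lay between 26.7 and 77.8 CPM and no class stood apart, squamous-like cells included (43.0 CPM in DATK32 and 48.3 CPM in rat IgG). Fibroblast-like cells had similar values of 60.01, 54.8 and 49.8 CPM. ZO-1 is a general junction scaffold, used at tight and adherens junctions of many cell types.

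Cldn5, the claudin of endothelial junctions best known from the blood-brain barrier, stood at 283 CPM in DATK32 (208 to 376), 188 CPM in MECA367 (136 to 255) and 114 CPM in rat IgG (67.6 to 180) in endothelial-like cells. Over all epithelial cells it had 3, 1 and 0 counts in 10143347, 5998249 and 9783562 UMIs of DATK32, MECA367 and rat IgG. Endothelial-like over epithelial cells, the ratio was 957 in DATK32 (308 to 4808) and 1130 in MECA367 (192 to 45701), and in rat IgG endothelial-like cells were at least 372-fold higher, set against a floor of 3 counts over the library's epithelial cells. The other members in endothelial-like cells rested on few counts, 34, 9 and 23 for Cldn7 in DATK32, MECA367 and rat IgG, and 1 rat IgG cell alone held 13 of its 23. All 12 vascular endothelial markers were found in at least 5% of these cells in each library. The class was named from this same list, so their presence is no separate check of the name.

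The share of cells with a UMI was compared after each cell was thinned to 1000 UMIs, leaving out shallower cells. Cldn7 was then found in 85.7% of colonocyte-like cells in DATK32, 79.6% in MECA367 and 82.1% in rat IgG, against 8.9%, 5.1% and 12.01% of immune cells, which do not make epithelial junctions. Without thinning the gene was found in 250 of 254, 117 of 117 and 376 of 377 colonocyte-like cells at medians of 5929.5, 8223 and 4021 UMIs, and in 11.2%, 9.46% and 13.8% of immune cells at medians of 1290.5, 1765 and 1189 UMIs. Cldn3 was found after thinning in 58.8%, 67.3% and 56.9% of colonocyte-like cells and 3.80%, 3.43% and 5.24% of immune cells. In squamous-like cells Cldn3 was found in 3.53% in DATK32 and 3.79% in rat IgG, which is at the immune background, and Cldn7 in 14.7% and 20.4%. Of the 9 members other than Cldn5, a thinned colonocyte-like cell showed a mean of 2.18 in DATK32, 2.30 in MECA367 and 2.11 in rat IgG, and none of the 9 in 4.49%, 4.42% and 4.34% of cells. In squamous-like cells the mean was 0.347 in DATK32 and 0.403 in rat IgG.

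**Figure D2:**
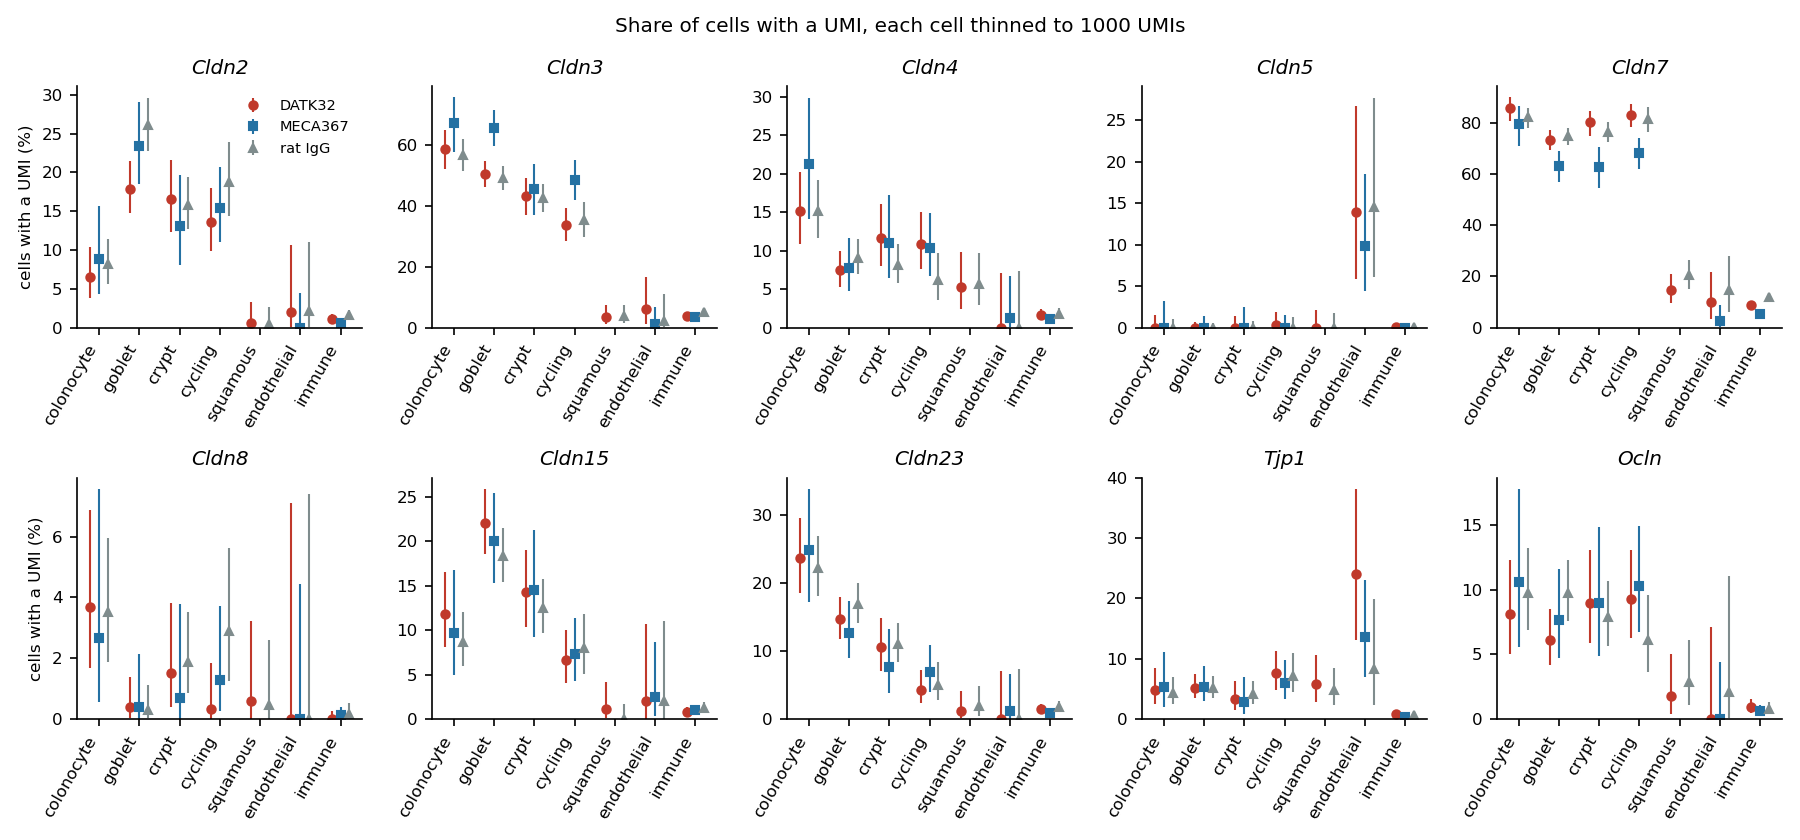
Share of cells with at least 1 UMI of each gene in percent (vertical axes, linear, each gene with its own range) after thinning every cell to 1000 UMIs, by class including immune cells (horizontal axes), for DATK32, MECA367 and rat IgG with exact 95% binomial intervals as bars. Columnar classes stood far above immune cells for Cldn3 and Cldn7 (85.7%, 79.6% and 82.1% of colonocyte-like cells against 8.9%, 5.1% and 12.01% of immune cells for Cldn7), whereas squamous-like cells were at the immune level for Cldn3.

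Across 45 points, each a class in a library with at least 50 cells, 12922 genes were ranked by Pearson correlation with each member, as a description of points that share libraries and depth. Cldn5 ran closest to the endothelial genes Ptprb, Sox18 and Emcn (r of 0.995, 0.994 and 0.993), and Cldn8 to Mep1a, a brush border protease gene, Sult1b1 and Akr1c19 (0.94, 0.92 and 0.90). Cldn3 ran closest to Lgals4, Epcam and Tstd1 (0.99, 0.97 and 0.97) and Cldn7 to Krt19, Dsg2 and Epcam (0.97 each). Cldn2 ran closest to Golm1, Muc13 and Gmds (0.95, 0.94 and 0.94), and Cldn15 to Slc35a1, Pccb and Golm1 (0.94, 0.93 and 0.92). Cldn23 ran closest to Phgr1, Lgals4 and Prom1 (0.96, 0.95 and 0.95), Ocln to Ceacam1, Prom1 and F2rl1 (0.95, 0.94 and 0.94), Cldn4 to Elovl7, Cnksr1 and Tuft1 (0.90, 0.90 and 0.89), and Tjp1 to Nfib, Ptprg and Luzp1 (0.95, 0.93 and 0.92).

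To compare the treatments, a gene was called higher or lower in a class when the 95% Poisson intervals of 2 libraries were apart and their ratio was at least 1.5 either way, in classes with at least 100 cells per library and for genes with at least 50 counts over the 3. The members gave 38 such pairs of gene and class, and 4 passed for DATK32 against rat IgG, 5 for MECA367 against rat IgG and 5 for DATK32 against MECA367. The 2 comparisons with rat IgG share that library. With 1 library each, treatment and library cannot be told apart.

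For DATK32 against rat IgG, 0 of 9 measured members passed in colonocyte-like cells, where 1.68% of 7615 genes did, 1 of 8 in goblet-like (1.99% of 9111), 1 of 9 in crypt-like (1.65% of 7333), 1 of 9 in cycling-like (2.61% of 8534) and 1 of 3 in endothelial-like cells (4.1% of 1876). For MECA367 against rat IgG, 2 of 9 passed in colonocyte-like cells (4.67% of all genes), 1 of 8 in goblet-like (3.34%), 0 of 9 in crypt-like (3.7%), 1 of 9 in cycling-like (6.47%) and 1 of 3 in endothelial-like cells (8.37%). For DATK32 against MECA367, 1 of 9 passed in colonocyte-like (3.24%), 2 of 8 in goblet-like (3.03%), 1 of 9 in crypt-like (3.14%), 0 of 9 in cycling-like (4.1%) and 1 of 3 in endothelial-like cells (7.3%). With so few members, a share of 1 in 8 or 9 is a single gene, and these counts do not set the members apart from other genes. The measured members' median log2 ratio of DATK32 to rat IgG was 0.13 in colonocyte-like, 0.05 in goblet-like, 0.14 in crypt-like and 0.01 in cycling-like cells, where that of all measured genes was -0.06, -0.02, -0.07 and -0.03. For MECA367 to rat IgG the members' medians in these classes were 0.07, 0.02, -0.04 and 0.03, where those of all measured genes were -0.05, -0.04, -0.06 and -0.04.

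Cldn2 was lower in goblet-like cells of DATK32, at 208 CPM against 330 CPM in rat IgG, a log2 ratio of -0.66 (interval -0.81 to -0.52). Against the 322 CPM of MECA367 the log2 ratio was -0.63 (-0.78 to -0.47). The ratio to rat IgG was -0.80 in the Agr2 cluster, -0.61 in the Clps cluster and -1.10 in the Zg16 cluster, each looked at after the data were seen. In crypt-like cells the DATK32 to rat IgG ratio was 0.07 (-0.19 to 0.31), and the goblet-like ratio was lower than it by a log2 difference of -0.73 (-1.01 to -0.45, counting error only). In colonocyte-like cells the ratio was -0.25 (-0.58 to 0.08), a difference of -0.42 (-0.77 to -0.07) from goblet-like cells. In cycling-like cells it was -0.42 (-0.64 to -0.21), and the difference of -0.24 (-0.49 to 0.02) from goblet-like cells reached 0. Between MECA367 and rat IgG the ratio over all goblet-like cells was -0.04 (-0.18 to 0.11), but in the Zg16 cluster it was -0.80 (-1.44 to -0.26), and there DATK32 to MECA367 was -0.30 (-1.07 to 0.46). Cldn2 in goblet-like cells missed the size of 1.5 when goblet cells were picked cell by cell (-0.56 against rat IgG and -0.54 against MECA367) or without the Agr2 cluster (-0.51 and -0.54).

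Cldn7 was lower in MECA367 than in either other library. In goblet-like cells it was 963 CPM in MECA367 against 1499 CPM in rat IgG, a log2 ratio of -0.64 (-0.71 to -0.56). In colonocyte-like, crypt-like and cycling-like cells the ratios to rat IgG were -0.41 (-0.50 to -0.32), -0.52 (-0.62 to -0.42) and -0.46 (-0.55 to -0.37), short of the size needed. DATK32 was above MECA367 by 0.63 (0.54 to 0.72) in colonocyte-like, 0.65 (0.57 to 0.72) in goblet-like, 0.66 (0.56 to 0.77) in crypt-like and 0.47 (0.38 to 0.56) in cycling-like cells, where only the last missed it. In 9 of the 10 epithelial clusters with at least 30 cells in every library the MECA367 level was below that of rat IgG. It was also lower outside the epithelium, at 111 CPM in MECA367 against 255 CPM in rat IgG in immune cells, and 40.4 against 146 CPM in endothelial-like cells, where the called ratios of -1.76 to rat IgG and 2.23 for DATK32 over MECA367 rest on 34, 9 and 23 counts in DATK32, MECA367 and rat IgG. In immune cells Epcam stood at 201 CPM in MECA367 against 249 CPM in rat IgG, and 11 epithelial markers summed to 1409, 592 and 1072 CPM in endothelial-like cells of DATK32, MECA367 and rat IgG. Their part in the immune and endothelial-like Cldn7 ratios was not tested. Without the 13, 13 and 11 endothelial-like cells that held at least 2 epithelial marker UMIs, Cldn7 had under 50 counts there. After thinning to 1000 UMIs the goblet-like ratio of Cldn7 to rat IgG was -0.55, and DATK32 over MECA367 was 0.57 in goblet-like and in colonocyte-like cells, all short of the size needed.

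Cldn3 ran the other way in MECA367 without passing the rule. Its ratio of MECA367 to rat IgG was 0.42 (0.33 to 0.50) in goblet-like, 0.38 (0.27 to 0.50) in colonocyte-like, 0.25 (0.09 to 0.40) in cycling-like and 0.23 (0.08 to 0.37) in crypt-like cells, and all 10 epithelial clusters had a higher level in MECA367. In immune cells Cldn3 had 73.0 CPM in MECA367 against 81.0 CPM in rat IgG. In goblet-like cells thinned to 1000 UMIs the ratio was 0.69, which passed.

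Cldn4 was higher in both antibody libraries in some classes. In crypt-like cells DATK32 had 139 CPM against 85.6 CPM in rat IgG, a log2 ratio of 0.70 (0.37 to 1.03). MECA367 had 244 CPM in colonocyte-like cells against 161 CPM in rat IgG, a ratio of 0.60 (0.35 to 0.85), and 86.9 CPM in cycling-like cells against 57.2 CPM, a ratio of 0.60 (0.18 to 1.02). Neither cycling cluster alone gave that ratio. It was 0.51 (-0.06 to 1.05) in the deep cluster, at 64.8 CPM in MECA367 against 45.7 CPM in rat IgG, and -0.30 (-0.97 to 0.45) in the shallow one, at 128 against 155 CPM. The shallow cluster, where Cldn4 was higher in each library, held 34.9% of the class's UMIs in MECA367 and 10.5% in rat IgG. The other columnar ratios to rat IgG were 0.41 (colonocyte-like) and 0.52 (cycling-like) in DATK32 and 0.47 (crypt-like) in MECA367. Goblet-like cells had 0.06 in DATK32 and 0.19 in MECA367. Their clusters, looked at after the data were seen, differed in sign. In DATK32 the ratio was 0.18 (-0.11 to 0.48) in the Agr2, -0.85 (-1.50 to -0.24) in the Clps and 0.76 (0.17 to 1.36) in the Zg16 cluster. In MECA367 it was 0.32, -0.62 and 0.16 in the same order. The Cldn4 calls were the least stable of the members. The crypt-like ratio in DATK32 was between 0.19 and 0.91 and failed the rule under 6 of 20 other settings. The cycling-like one in MECA367 was between 0.25 and 1.06 and failed under 8 of 19. The colonocyte-like ratio in MECA367 was 0.28 after thinning.

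Cldn8 was lower in cycling-like cells of DATK32, with 15 counts or 6.82 CPM, against 37 counts or 22.3 CPM in rat IgG, a log2 ratio of -1.65 (-2.68 to -0.81). In crypt-like cells its ratio was -0.73 (-1.66 to 0.06) and in colonocyte-like cells, where its level was highest, -0.15 (-0.61 to 0.30). As a mean of per-cell CPM the cycling-like ratio was -0.90 and did not pass.

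Tjp1 was higher in colonocyte-like cells of MECA367, with 77.8 CPM against 46.7 CPM in rat IgG, a log2 ratio of 0.74 (0.28 to 1.2). In crypt-like cells its ratio was -0.82 (-1.55 to -0.21), which did not pass, and in goblet-like and cycling-like cells -0.11 and 0.03. Its direction was thus not the same across columnar classes of MECA367. The colonocyte-like call rests on 117 MECA367 cells and could be recomputed under only 13 of 21 other settings. It failed there at a fold of 2 alone. Of the settings that formed the classes anew, only the mitochondrial limit of 20% left colonocyte-like cells to compare.

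Cldn5 was higher in endothelial-like cells of DATK32, with 47 counts in 20 of 101 cells, against 18 counts in 14 of 108 rat IgG cells, a log2 ratio of 1.26 (0.50 to 2.18). MECA367, with 42 counts in 16 of 102 cells, gave 0.68 (-0.10 to 1.61) to rat IgG. The 12 vascular markers together stood at 8065, 8239 and 6823 CPM in DATK32, MECA367 and rat IgG, lowest in rat IgG. Singly, 7 of the 12 were lowest in rat IgG, among them Pecam1 (1012, 956 and 710 CPM), and 3 were highest there, among them Cdh5 (524, 588 and 647 CPM). Their part in the Cldn5 ratio was not tested. After thinning, 14.0% of DATK32, 9.88% of MECA367 and 14.6% of rat IgG cells had a Cldn5 UMI. The call was lost when the highest doublet scores were removed (1.16) and with classes picked cell by cell (1.01).

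Cldn15, Cldn23 and Ocln passed in no class and no comparison. For Cldn15 the ratios to rat IgG lay between -0.36 and 0.26 in DATK32 and between -0.26 and 0.08 in MECA367. For Cldn23 they lay between -0.05 and 0.23 in DATK32 and between -0.03 and 0.44 in MECA367. For Ocln they lay between 0.00 and 0.24 in DATK32 and between -0.04 and 0.36 in MECA367, and the colonocyte-like Ocln interval in MECA367 was 0.02 to 0.68. In squamous-like cells, compared for DATK32 and rat IgG after the data were seen, 0 of 5 measured members passed, where 4.77% of 5092 genes did, with ratios between -0.31 (Cldn4) and 0.18 (Ocln).

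**Figure D3:**
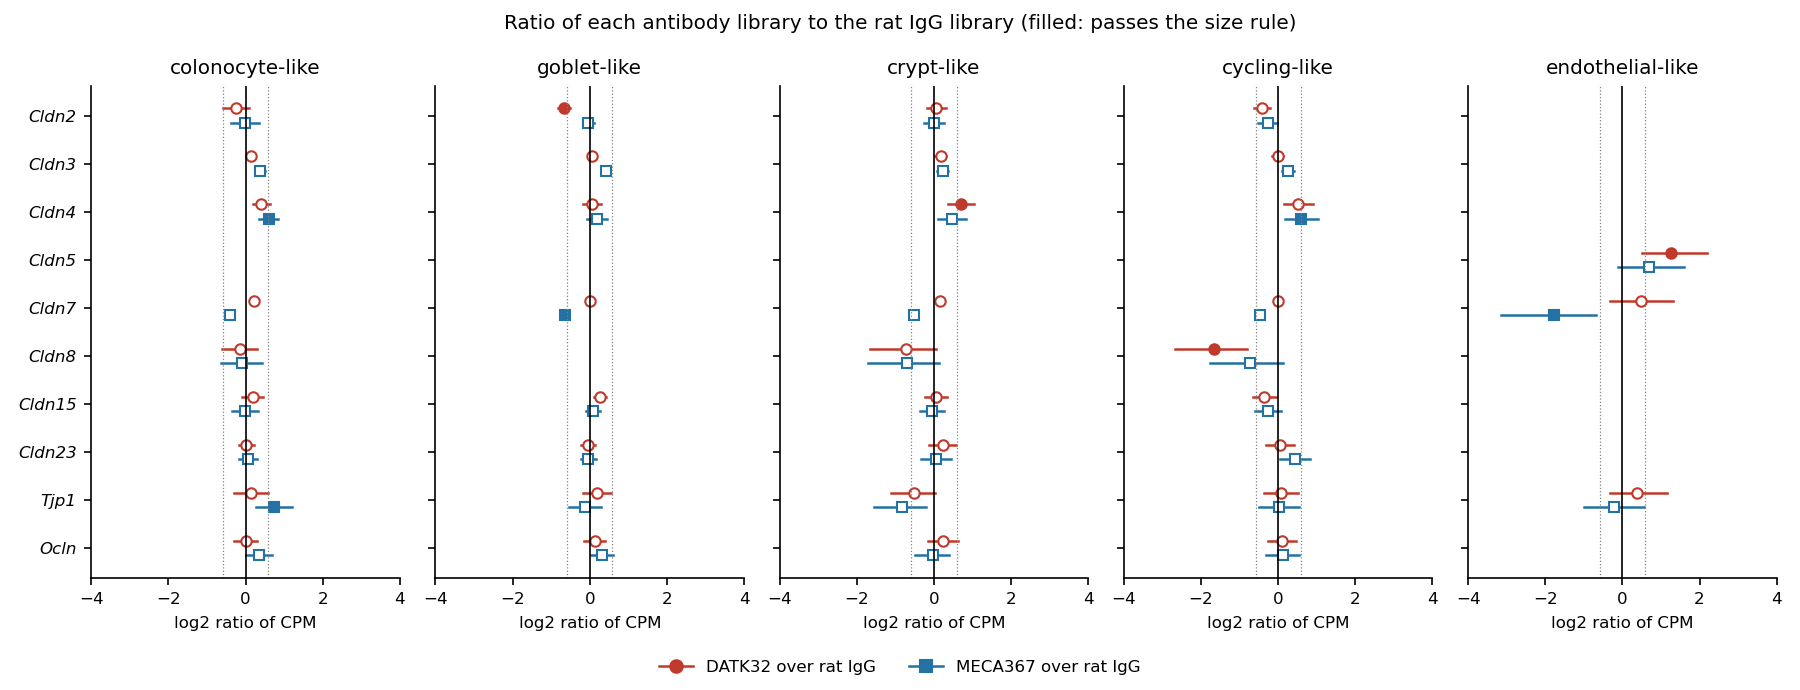
Log2 ratio of CPM (horizontal axes) of DATK32 over rat IgG (circles) and MECA367 over rat IgG (squares) for each measured gene (vertical axis) in 5 classes, with exact 95% counting intervals as bars, dotted lines at a ratio of 1.5 either way, and filled points for ratios that passed the rule. Goblet-like Cldn2 in DATK32 (-0.66) and goblet-like Cldn7 in MECA367 (-0.64) have narrow intervals, while Cldn8 in cycling-like cells (-1.65) and the endothelial-like ratios have wide ones.

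**Figure D4:**
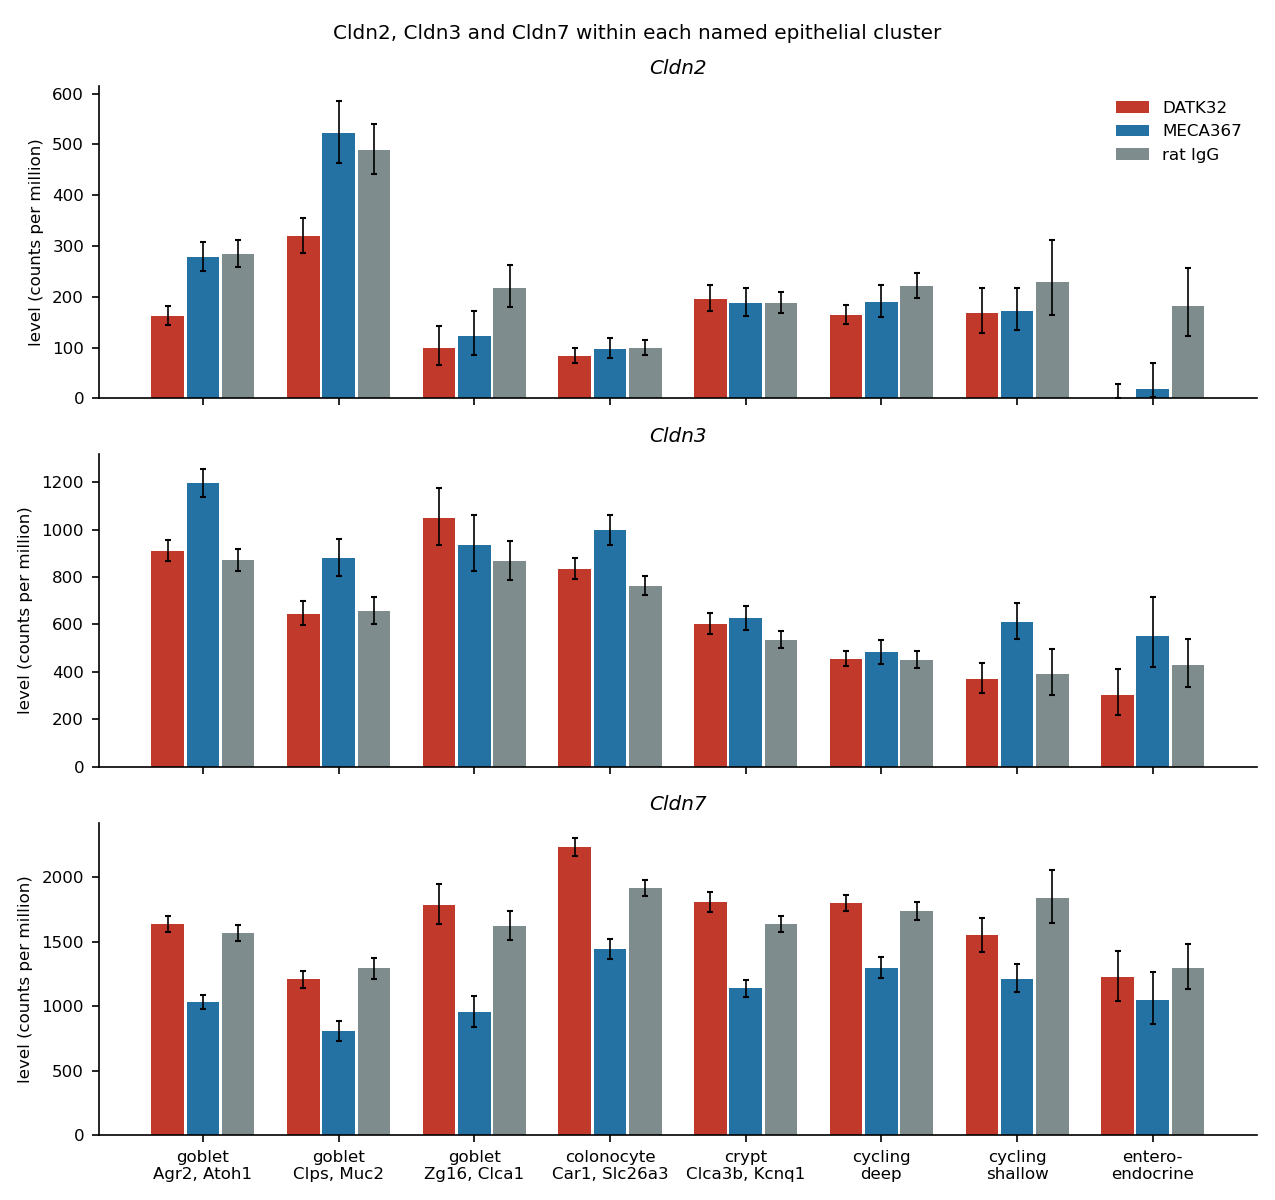
Level of Cldn2, Cldn3 and Cldn7 in CPM (vertical axes, from 0) in 8 named epithelial clusters (horizontal axis, named by class and leading genes), as bars for DATK32, MECA367 and rat IgG with 95% Poisson intervals. Cldn2 was below rat IgG in all 3 goblet clusters of DATK32 (319 against 489 CPM in the Clps cluster), Cldn3 of MECA367 was above rat IgG in each cluster, and Cldn7 of MECA367 was below rat IgG in each. The 1 exception to the last among 10 clusters was an unnamed one that is not drawn.

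The members were set beside a wider list of 50 tight junction genes and 16 adherens junction and desmosome genes. Of 26 other claudin genes and claudin-like genes, at most 3 reached 50 counts in an epithelial class: Cldn12 and Cldnd1 in each columnar class, Cldn14 in goblet-like cells (60 counts), and Cldn1 and Cldnd1 in squamous-like cells. Cldn1, the barrier claudin of the epidermis, had a mean of 90.5 CPM in squamous-like cells. By CPM, which in this 3' assay is not scaled to gene length, the highest listed genes in colonocyte-like cells were Cdh1 (E-cadherin), Dsp (desmoplakin) and the catenin genes Ctnnb1 and Ctnnd1, at means of 451, 448, 331 and 288 CPM, with the desmosomal cadherin Dsg2 at 277 CPM. In goblet-like cells Cxadr, which encodes the coxsackievirus and adenovirus receptor, led with 410 CPM, followed by Cdh1, Ctnnb1, Dsp and Ctnna1 at 338, 260, 230 and 196 CPM. In crypt-like and cycling-like cells Cdh1 led at 326 and 358 CPM. In squamous-like cells Dsp and Jup, the plakoglobin gene, led at 843 and 393 CPM, and in endothelial-like cells Cdh5, the gene of VE-cadherin, led at 586 CPM.

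For DATK32 against rat IgG the tight junction list gave 0 of 22 measured genes in colonocyte-like (1.68% of all genes), 0 of 23 in goblet-like (1.99%), 0 of 21 in crypt-like (1.65%), 1 of 22 in cycling-like (2.61%) and 1 of 2 in endothelial-like cells (4.1%). Those that passed were the polarity gene Pard3, lower in cycling-like cells (37.3 CPM in DATK32 against 57.8 CPM in rat IgG, log2 ratio -0.63), and the adhesion gene F11r, which encodes JAM-A, higher in endothelial-like cells (331 against 171 CPM, 0.93). For MECA367 against rat IgG, 3 of 22 passed in colonocyte-like (4.67% of all genes), 1 of 23 in goblet-like (3.34%), 2 of 21 in crypt-like (3.7%), 0 of 22 in cycling-like (6.47%) and 0 of 2 in endothelial-like cells (8.37%). Prkci, the atypical protein kinase C of the apical polarity complex, was lower in colonocyte-like (42.9 CPM in MECA367 against 80.5 CPM in rat IgG, -0.88), goblet-like (24.8 against 41.4 CPM, -0.73) and crypt-like cells (45.4 against 92.95 CPM, -1.01). Its partners Pard6b (189 against 124 CPM, 0.60) and Crb3 (127 against 81.0 CPM, 0.65) were higher in colonocyte-like cells, so genes of one complex lay on both sides of rat IgG. Lsr, an angulin of contacts between several cells, was lower in crypt-like cells (58.3 against 106 CPM, -0.84).

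For DATK32 against MECA367, 0 of 22 passed in colonocyte-like (3.24% of all genes), 1 of 23 in goblet-like (3.03%), 3 of 21 in crypt-like (3.14%), 1 of 22 in cycling-like (4.1%) and 0 of 2 in endothelial-like cells (7.3%). Prkci, Lsr and Ildr1, another angulin gene, were higher in crypt-like cells (0.71, 0.65 and 0.65), Igsf5 was lower in goblet-like (-0.65) and Magi1, a scaffold gene, lower in cycling-like cells (-0.77). Of the adherens junction and desmosome genes, 13 were measured in colonocyte-like, 14 in goblet-like, 12 in crypt-like, 13 in cycling-like and 6 in endothelial-like cells. None of them passed for DATK32 against rat IgG, where 1.65% to 4.1% of all genes did, and 1 of 12 passed for MECA367 in crypt-like cells, where 3.7% of all genes did. This was Dsc2 (61.2 CPM in MECA367 against 98.5 CPM in rat IgG, -0.67). Nectin1 was higher in goblet-like (0.68) and lower in cycling-like cells (-1.28, from 20 and 26 counts) of DATK32 against MECA367. In squamous-like cells of DATK32 against rat IgG 2 of 10 measured tight junction genes and 2 of 14 adherens junction and desmosome genes passed, where 4.77% of all genes did. Cldn1 was higher (112 against 69.0 CPM, 0.69), and F11r (-0.59), Dsc2 (-0.73) and the envoplakin gene Evpl (-0.98) were lower. The median log2 ratio of the measured list genes lay between -0.17 and 0.05 for the tight junction list in the epithelial columnar classes of DATK32 against rat IgG, where the median of all measured genes lay between -0.07 and -0.02. For MECA367 against rat IgG it lay between -0.12 and 0.10, where that of all measured genes lay between -0.06 and -0.04.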

How the data were processed

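Per the labels' protocols, viable CD45+ lamina propria mononuclear cells were sorted and made into 10x 3' v3.1 libraries, sequenced together. Per the submitters' processing notes, the authors used Cell Ranger 6.0.2 and build mm10; annotation, cell filter and strand setting are not given in the sources used here. The deposited values are counts, raw UMIs per gene and barcode. A barcode was kept from 500 UMIs and 200 genes upward, if mitochondrial genes made up no more than 10% of its UMIs (29.6% to 31.9% of barcodes were over that limit). Depth was 27846540 to 30359331 UMIs per library. Cells were clustered with scanpy 1.11.5 (2000 variable genes, 30 components, Leiden resolution 1.0), epithelial cells a second time (1500 genes, 20 components), without the junction genes. Clusters were named from marker lists, with score thresholds set after the data were seen. Scrublet marked 1 cell, so doublets remain. Counts were summed per class and library. Intervals are exact (95%) and log2 ratios add 1 count to each sum. Promoters and gene positions are from RefSeq and GENCODE. The members, lists and markers were chosen with earlier results of these data known. Named genes are the 10 members, list genes that passed (at most 5 per class and comparison), the 5 with the highest CPM per class, and the 3 most alike per member.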

Additional observations from a re-analysis of the deposited data

How the results depend on the processing

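Each result was recomputed under 15 planned settings and 6 chosen after seeing the data. No called ratio changed sign, and 7 of 100 uncalled ratios passed under at least 1 setting. Several settings left fewer classes with 100 cells in every library, and fewer classes then give fewer calls. Of the 5 classes, 3 could be compared with at least 1000 UMIs and 500 genes, 1 with a mitochondrial limit of 5% and 3 at resolution 0.5. It was 4 with doublet scores removed, at resolution 2.0, with junction genes kept in clustering, with classes picked cell by cell or after thinning. Colonocyte-like cells were left out under each of these settings but thinning, so their calls were not recomputed there. For DATK32 against rat IgG, against 4 calls, there were 1 at 5% mitochondrial UMIs, 2 without the highest doublet scores, 2 at a fold of 2 and 1 after thinning to 1000 UMIs. For MECA367 against rat IgG, against 5, there were 1 at 1000 UMIs, 1 at 5% mitochondrial UMIs, 1 without doublet scores, 2 at resolution 0.5, 2 with junction genes in clustering, 2 cell by cell, 1 at a fold of 2 and 1 after thinning. For DATK32 against MECA367, against 5, there were 3 at 1000 UMIs, 2 at 5%, 3 without doublet scores, 3 at resolution 0.5, 3 at resolution 2.0, 3 with junction genes in clustering, 1 at a fold of 2 and 3 after thinning. These counts can take in pairs of gene and class that did not pass or were not measured in the analysis reported above. Of the calls reported, 3 of 5 remained for MECA367 against rat IgG at resolution 2.0 (4 calls in all). For DATK32 against rat IgG 2 of 4 remained at resolution 0.5 and 2 of 4 cell by cell (3 in all each). For DATK32 against MECA367 3 of 5 remained cell by cell (4 in all) and 2 of 5 after thinning (3 in all). Of the 5 calls for MECA367 against rat IgG, 3 could be measured after thinning and 0 remained. The 1 call there after thinning was Cldn3 in goblet-like cells, which did not pass in the analysis reported above. The class with the highest level was as reported for 5 of the 10 members at 5% mitochondrial UMIs, where no colonocyte-like or crypt-like class was left, and for 9 or 10 under the others run. Cldn3 moved to colonocyte-like cells after thinning, as a mean of per-cell CPM and without the Agr2 goblet cluster. Cldn4 moved to crypt-like cells with junction genes kept in clustering. TMM scaling (edgeR 4.0.16) moved the median ratio of MECA367 to rat IgG in endothelial-like cells by 0.12 and the others by less than 0.1, and left the counts at 4, 5 and 5. No paired analysis was possible because each treatment has 1 library and the groups share a single replicate number. Depth limits Cldn8, Tjp1 and the endothelial-like class, where a class holds 157706 to 222852 UMIs per library.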

Other observations

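Outside the classes compared above, Cldn4 was high in enteroendocrine-like cells, the hormone-making cells led by Chgb and Chga. They had 585 CPM in DATK32 (462 to 731), 868 CPM in MECA367 (699 to 1065) and 462 CPM in rat IgG (366 to 576), from 43, 32 and 66 cells, above the colonocyte-like level in each library. In these cells Cldn15 had 2, 2 and 10 counts and Cldn2 had 0, 2 and 31 counts in DATK32, MECA367 and rat IgG, the 31 from 11 of 66 cells. Ocln had 122, 114 and 141 CPM there, from 16, 12 and 24 counts, where colonocyte-like cells had 101, 129 and 101 CPM.

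A shallow epithelial cluster that stayed unnamed, led by Gm26917 and Rmrp, had 326, 489 and 335 CPM of Cldn4 in DATK32, MECA367 and rat IgG, from 202, 256 and 74 cells at medians of 776.5, 861.5 and 985.5 UMIs. Barcodes over the mitochondrial limit, which were left out, held the same epithelial junction genes. Over their nuclear-encoded UMIs Cldn7 had 1960, 1222 and 1860 CPM in DATK32, MECA367 and rat IgG, and Cldn3 had 512, 677 and 543 CPM. Cldn4 had 1885, 1799 and 2029 counts in these barcodes, against 1470, 1147 and 1222 in the kept cells. Cldn23 and Ocln also had more counts there in every library. Cldn2, Cldn3, Cldn5 and Cldn15 had fewer in every library, and Cldn7, Cldn8 and Tjp1 differed by library.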
